A study of Rattus norvegicus with 11 samples.

Results

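The ABC and organic ion transporters are gene families that hold the main membrane carriers of drugs, bile acids, sterols and other organic ions in the gut wall. Members were chosen by gene symbol: the ATP-binding cassette (ABC) families A to G, the Slco, Slc22 and Slc10 families, and the Slc51 pair. The rule found 60 genes among 11018 probe sets with a symbol, and 11427 probe sets were tested in all. These were 31 ABC genes, 12 Slco genes, 13 Slc22 genes and 4 genes of Slc10 and Slc51. All 60 are called carriers below for their family, although 6 of the ABC genes encode proteins of organelle membranes and 5 encode channel subunits (Abcc8 and Abcc9) or soluble proteins that carry nothing (Abce1, Abcf1 and Abcf3).

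ABC pumps spend ATP to drive their cargo out of a cell or into an organelle. In enterocytes they return drugs, conjugates and plant sterols to the gut lumen and load cholesterol onto lipoproteins. Slco and Slc22 carriers take up organic anions, cations and carnitine, while Slc10 and Slc51 proteins carry bile acids through the enterocyte back to the portal blood. Several of these genes are targets of nuclear receptors that sense bile acids, oxysterols and drugs.

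RNA from rat small intestine was hybridised to 11 Affymetrix arrays in 3 groups. Non brain-dead ventilated controls (NBD, 3 arrays, titled 1, 3 and 4) had been anaesthetised and ventilated for 6 hours. The brain-dead group (BD, 4 arrays, titled 1, 3, 4 and 6) and the brain-dead group given vagal stimulation (BD_VNS, 4 arrays) were sampled 6 hours after brain death. The labels of all 11 samples describe the rats as transgenic and name no transgene, and neither strain, age and sex nor the settings of the stimulation are known from the sources at hand. Samples titled NBD carry a source entry that mentions BD animals as well, and grouping followed the titles. No label says whether each array came from its own animal, so p-values measure the spread between these samples, which may be technical.

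Some arrays stood apart from their group. A list of pancreatic acinar genes, of which 14 of 18 were measured, averaged a log2 level of 13.9 in BD 4, 13.4 in BD 6 and no more than 7.87 in the other 9 arrays. The log2 difference between 3' and 5' control probe sets was 1.04, 1.03 and 1.10 in BD_VNS 1, 3 and 4, and between 0.69 and 0.89 in the 8 other arrays, BD_VNS 2 among them at 0.75. Enterocyte markers, 14 of 20 measured, averaged 11.96 to 12.12 in NBD, 11.73 to 11.98 in BD and 11.98 to 12.13 in BD_VNS, and 0 of the 14 lay in the lowest 25% of probe sets. Hepatocyte markers, 9 of 9 measured, averaged between 6.84 and 7.10.

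Few of the 60 carriers changed between any pair of groups. Levels are the deposited log2 values, and a gene is said to pass where the limma fit over all probe sets gave it an adjusted p under 0.05. In BD against NBD, 2 of 60 passed, Slc22a23 and Abcd4, both lower in BD, which is 3.33% of the carriers beside 5.73% of all probe sets tested. In BD_VNS against BD, 2 passed, Abcd3 higher and Abca8a lower, beside 5.56% of all probe sets. In BD_VNS against NBD, 3 passed, Slc22a23, Abcd4 and Abca8a, all lower, beside 8.44% of all probe sets. These shares were near or under the background, so the counts give no result particular to the carriers. In total 4 carriers passed in some comparison and 56 in none, and 9, 12 and 11 had an unadjusted p under 0.05 in the 3 comparisons in that order. Those are 15%, 20% and 18.3% of the carriers, beside 18.8%, 22.6% and 23% of all probe sets. Comparisons share arrays with each other: the BD arrays stand in the first 2 and the NBD arrays in the first and last.

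**Figure D1:**
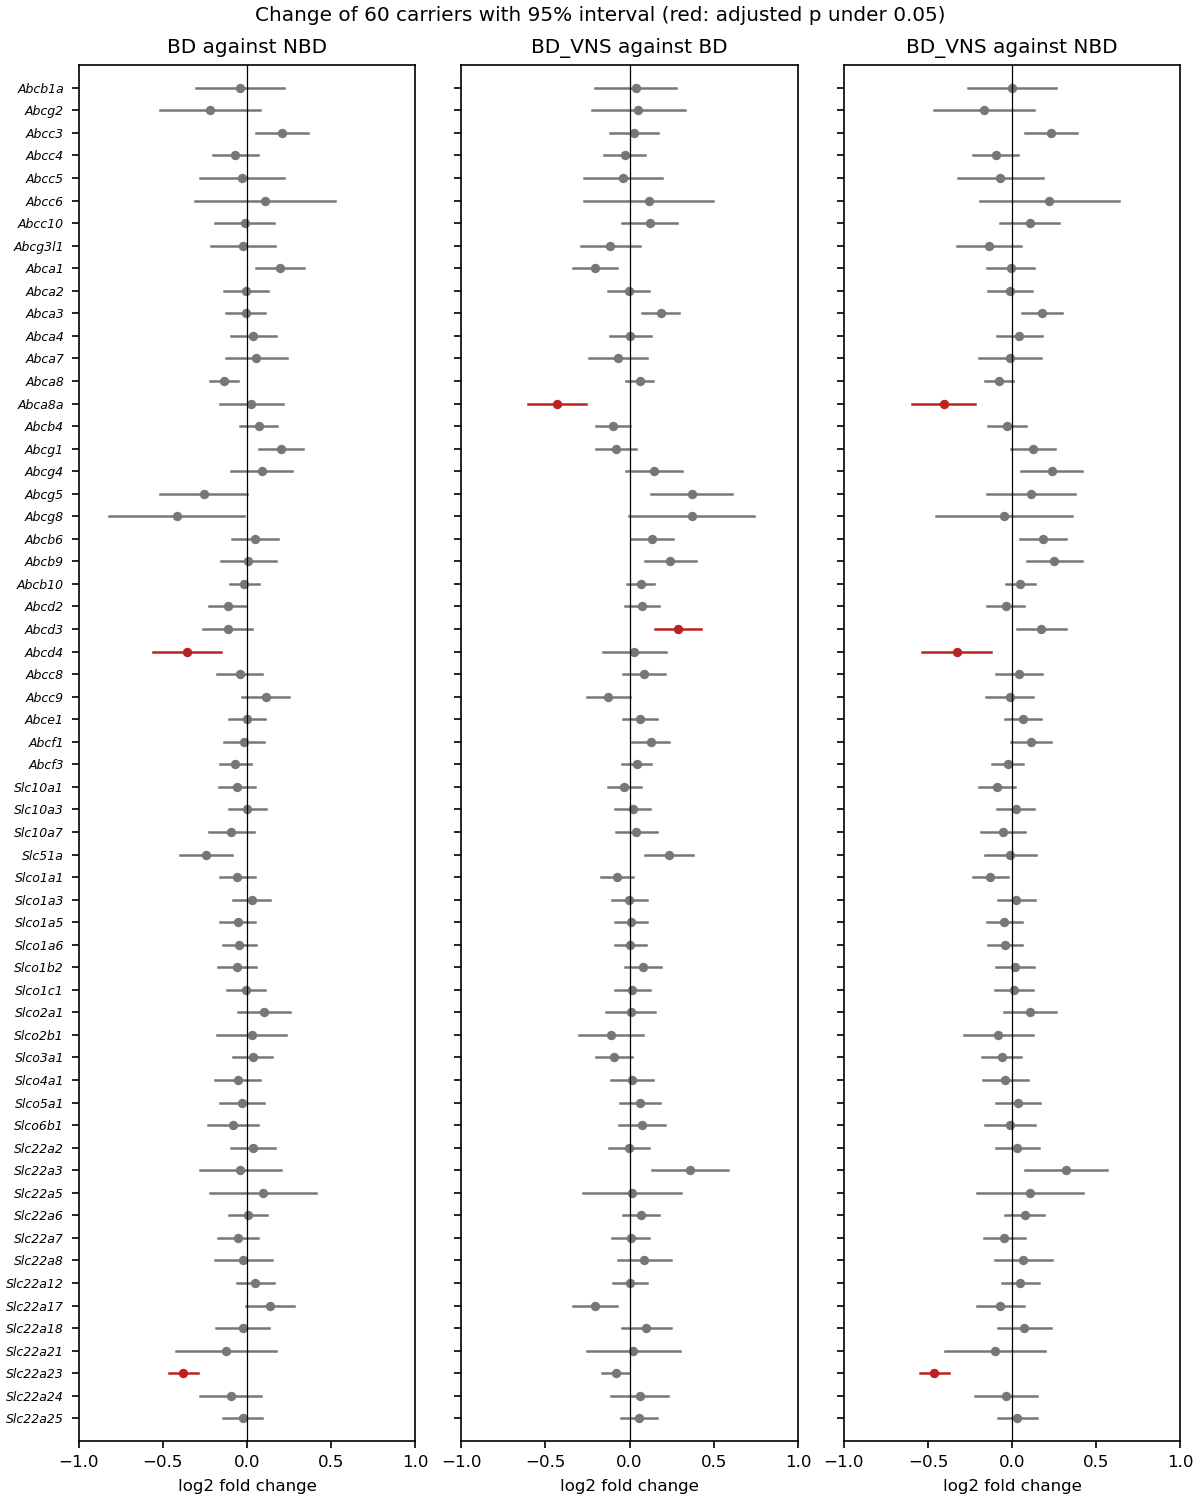
Log2 fold change of each of the 60 carriers (points) with its 95% interval (lines) for BD compared with NBD, BD_VNS with BD, and BD_VNS with NBD, from the limma fit. Points in red passed at an adjusted p under 0.05, and no carrier lies beyond 0.5 in either direction.

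The measured changes were small. The median log2 fold change of the carriers was -0.02, 0.03 and -0.01 in the 3 comparisons in that order, and that of all probe sets tested was -0.01, 0.03 and 0.01. The median absolute change was 0.055, 0.069 and 0.064 for the carriers and 0.062, 0.066 and 0.066 for all probe sets. The largest fall among the carriers was -0.42 (Abcg8), -0.43 (Abca8a) and -0.46 (Slc22a23) in point estimate, in the same order, and the largest rise in point estimate was 0.21 (Abcc3), 0.37 (Abcg5) and 0.32 (Slc22a3). The 95% interval of the change lay within 0.5 of 0 on the log2 scale for 55, 56 and 55 of the 60 carriers, and within 1 of 0 for all 60 in each comparison.

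Groups that did not overlap array by array were also no more frequent than elsewhere in BD against NBD. There 10 carriers had arrays that did not overlap, 4 higher in BD (Abca1, Abcc9, Abcg1 and Slc22a17) and 6 lower (Abca8, Abcd2, Abcd4, Abcf3, Slc22a23 and Slc51a), which is 16.7% beside 20.4% of all probe sets. In BD_VNS against BD there were 6, with Abcd3, Abcg5, Slc22a3 and Slc51a higher and Abca8a and Abcc9 lower, or 10% beside 13.1% of all. In BD_VNS against NBD there were 14, 7 higher and 7 lower, or 23.3% beside 20.9% of all.

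Among the organic ion carriers, Slc22a23 (Entrez Gene 64559) was lower in both brain-dead groups than in NBD. It is an orphan member of the Slc22 family, whose transported substrate is not established. Its log2 level was 8.03, 8.01 and 8.05 in NBD 1, 3 and 4. In BD 1, 3, 4 and 6 it was 7.60, 7.66, 7.67 and 7.65, and in BD_VNS 1 to 4 it was 7.52, 7.63, 7.57 and 7.53. All 8 brain-dead arrays lay below all 3 NBD arrays, while BD and BD_VNS overlapped. The gene fell by 0.38 ± 0.04 (SE) in BD against NBD, 1.30-fold lower with an adjusted p of 0.000204, and by 0.46 ± 0.04 in BD_VNS against NBD, 1.38-fold lower with an adjusted p of 6.72e-05. The change of -0.08 in BD_VNS against BD did not pass, with an adjusted p of 0.201. The call held in all 20 refits with other settings or arrays left out, in both comparisons with NBD. In whole tissue, fewer cells that hold a transcript and less of it per cell cannot be told apart. Smooth muscle markers, 5 of 7 measured, averaged 10.32 to 10.65 in NBD, 10.66 to 11.10 in BD and 10.68 to 11.02 in BD_VNS, and their part in the result was not tested.

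The upstream sequence of Slc22a23 is shown because this gene carried the most stable call, with the window of Abcd4, the other carrier that fell in both brain-dead groups, for comparison. Each is the 250 bases before the annotated start in RefSeq GRCr8, 5' to 3' on the gene's own strand, at chr17:30749195-30749444 on the plus strand for Slc22a23 and chr6:109991984-109992233 on the minus strand for Abcd4. Capitals mark the letters AGAACA or their reverse complement, a short element of the glucocorticoid receptor.
Slc22a23: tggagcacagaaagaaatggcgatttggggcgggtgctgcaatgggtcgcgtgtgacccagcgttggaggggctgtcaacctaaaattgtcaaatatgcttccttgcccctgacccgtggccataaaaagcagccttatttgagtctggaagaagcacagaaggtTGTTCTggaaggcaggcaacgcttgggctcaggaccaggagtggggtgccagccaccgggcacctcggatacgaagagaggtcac
Abcd4: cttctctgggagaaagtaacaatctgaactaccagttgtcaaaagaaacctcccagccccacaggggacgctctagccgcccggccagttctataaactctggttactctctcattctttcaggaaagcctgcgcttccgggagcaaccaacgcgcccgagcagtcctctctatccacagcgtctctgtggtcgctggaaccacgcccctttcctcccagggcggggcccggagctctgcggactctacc
The Slc22a23 window held 1 match, from -85 to -80, and the Abcd4 window held 0. Of the 51 carriers with a promoter in the table, 5 held the letters (Abca1, Abcg5, Abcg8, Slc22a23 and Slco1a1), or 9.8%, beside 17.5% of all 33469 promoters. The match of Abcg5 and that of Abcg8 are the same bases, in a stretch that both windows hold. The E-box CACGTG stood in 3 of 51 (Abca1, Abcb6 and Slc10a3), or 5.88%, beside 5.59% of all. The nuclear receptor elements AGGTCANTGACCT, AGGTCANAGGTCA and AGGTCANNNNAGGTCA stood in 0 of the 51 carrier windows and in 0.0269%, 0.0508% and 0.00299% of all promoters. Both strands were searched, and a match is a description of the letters in the window.

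**Figure D2:**
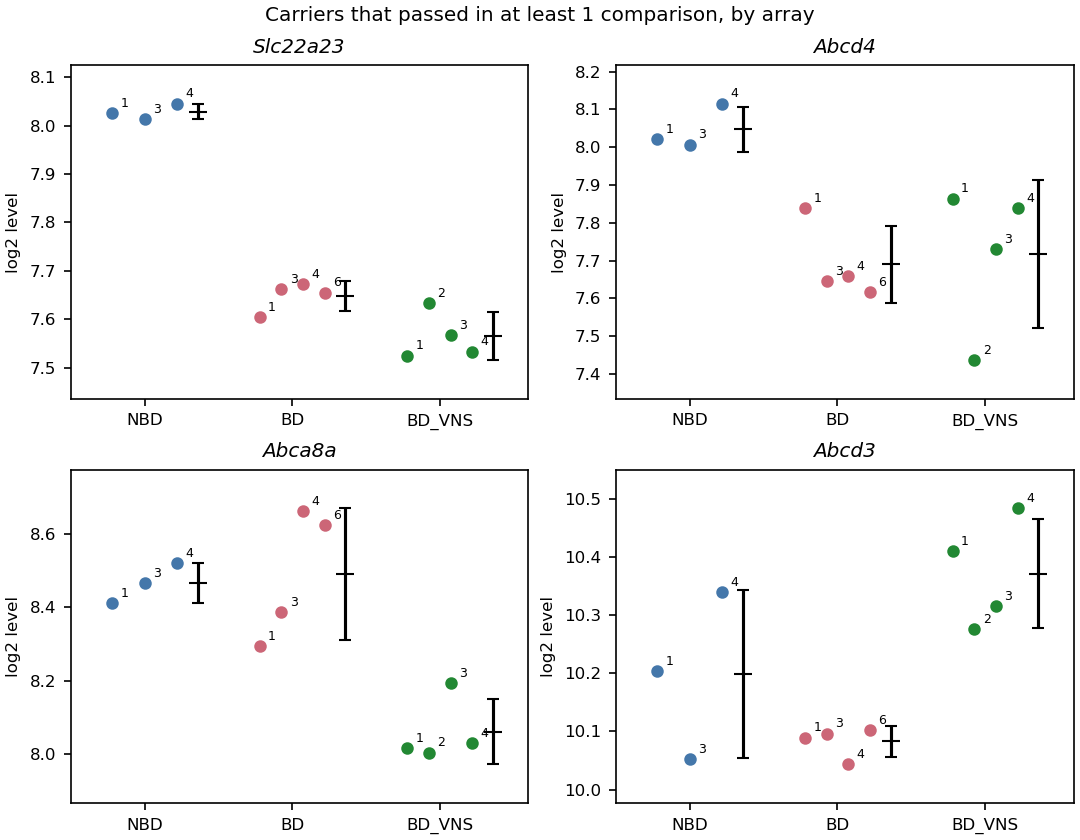
Log2 level by array of the 4 carriers that passed in at least 1 comparison, Slc22a23, Abcd4, Abca8a and Abcd3, with array numbers beside the points and bars for the group mean and SD. All 8 brain-dead arrays of Slc22a23 lie below the 3 NBD arrays, and the 4 BD_VNS arrays of Abca8a lie below the other 7.

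Other Slc22 carriers did not pass. Slc22a3 (29504), an organic cation carrier also called OCT3, was at 7.99, 8.09 and 8.12 in NBD 1, 3 and 4, at 8.26, 7.77, 7.87 and 8.21 in BD 1, 3, 4 and 6, and at 8.26, 8.52, 8.42 and 8.33 in BD_VNS 1 to 4. Its BD_VNS arrays all lay above its BD arrays, with a difference of 0.36 ± 0.10 (SE) from BD (adjusted p = 0.0661) and 0.32 from NBD (adjusted p = 0.104). Without BD 1 the comparison with BD passed, at 0.43 with an adjusted p of 0.0345, and that comparison passed in no other refit. The comparison with NBD passed with only the 2 groups fitted, at an adjusted p of 0.0238. Slc22a5, the carnitine carrier OCTN2, differed by 0.09 between BD and NBD and by 0.01 between BD_VNS and BD. Slc22a18, an orphan carrier, differed by -0.03 and 0.10 in the same comparisons. The kidney and liver carriers Slc22a2, Slc22a7, Slc22a8 and Slc22a12 were in the lowest 25% of probe sets by level, where a probe set may read mostly background, and none of these 4 passed. Slc22a6, at 7.07 to 7.29 over all arrays, was above that lowest 25% and did not pass either.

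None of the 12 Slco genes passed in any comparison, and their smallest adjusted p-values with limma were 0.502, 0.278 and 0.115, with 0, 0 and 1 at an unadjusted p under 0.05. These genes encode the organic anion transporting polypeptides, which take up bile acids, hormones, prostaglandins and drugs. Slco2b1, the member best known for drug uptake in the gut, ranged from 8.49 to 8.79 in NBD, 8.63 to 8.79 in BD and 8.39 to 8.79 in BD_VNS, so the 3 groups overlapped. The largest point estimate of the family was -0.13, for Slco1a1 in BD_VNS against NBD. Slco2a1, the prostaglandin carrier, differed by 0.10 between BD and NBD and by 0.01 between BD_VNS and BD. Slco1a5, described in rat intestine as a bile acid carrier, was among the 22 carriers in the lowest 25% by level, as were 7 other Slco genes.

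None of the drug efflux pumps passed. Abcb1a (170913), P-glycoprotein, was at 10.34, 10.79 and 10.67 in NBD 1, 3 and 4, at 10.66, 10.47, 10.44 and 10.67 in BD 1, 3, 4 and 6, and at 10.83, 10.36, 10.58 and 10.63 in BD_VNS 1 to 4. The 3 groups overlapped, with changes of -0.04 (95% interval -0.30 to 0.22) in BD against NBD and 0.04 (-0.20 to 0.28) in BD_VNS against BD. Abcg2 (312382), the breast cancer resistance protein that secretes drugs and urate into the lumen, was at 12.10, 11.79 and 11.65 in NBD, at 11.49, 11.85, 11.37 and 11.79 in BD, and at 11.83, 11.73, 11.43 and 11.72 in BD_VNS, in the same order of arrays. The groups again overlapped, with changes of -0.22 (-0.52 to 0.08) and 0.05 (-0.22 to 0.33). Abcc4, a pump for nucleotides and prostaglandins, differed by -0.07, -0.03 and -0.10 in the 3 comparisons. Abcc3 (140668), the basolateral pump for glucuronides and bile acid conjugates, was at 8.54, 8.67 and 8.50 in NBD, at 8.70, 8.91, 8.65 and 8.85 in BD and at 8.81, 8.85, 8.69 and 8.86 in BD_VNS. Its BD_VNS arrays all lay above the NBD arrays, yet the differences of 0.21 for BD and 0.23 for BD_VNS against NBD did not pass (adjusted p = 0.128 and 0.0694). None of the 8 genes of this class passed in any comparison in the limma fit, while 1, 0 and 1 had an unadjusted p under 0.05.

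**Figure D3:**
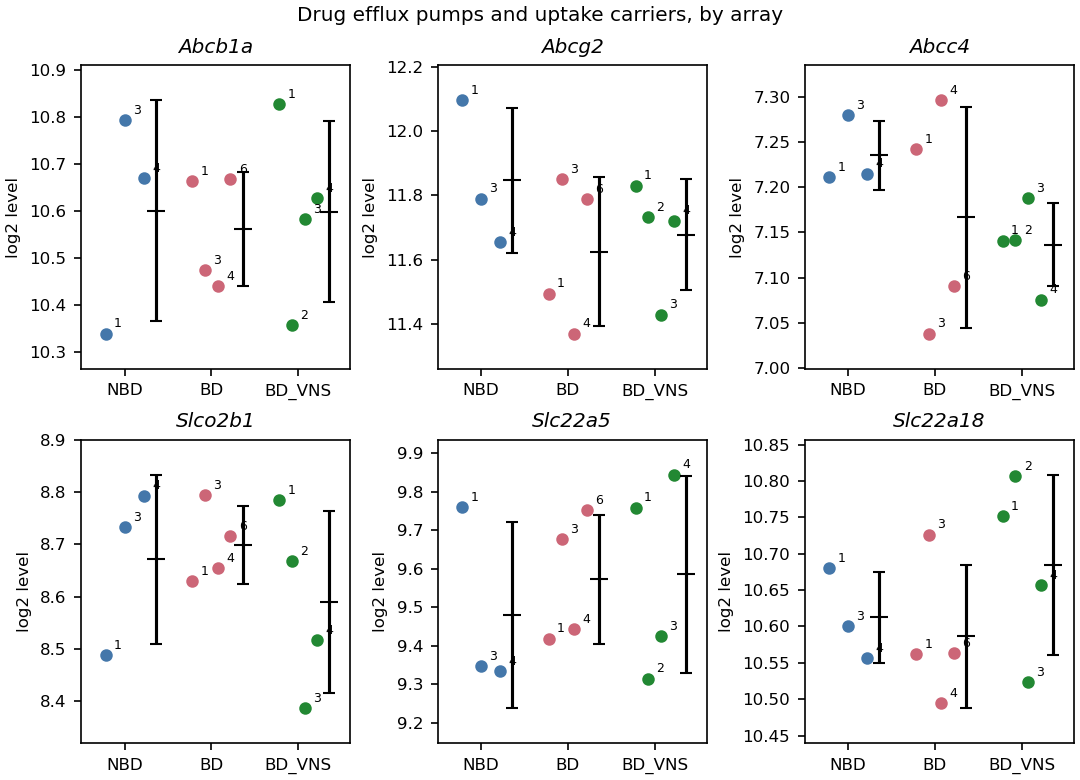
Log2 level by array of 3 efflux pumps (Abcb1a, Abcg2, Abcc4) and 3 uptake carriers (Slco2b1, Slc22a5, Slc22a18), with array numbers beside the points and bars for the group mean and SD. BD overlaps both other groups in each panel.

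Among the sterol and lipid exporters, Abca8a (303638) was lower in BD_VNS than in both other groups. It belongs to the ABCA subfamily, and its relative ABCA8 is known from human and mouse for cholesterol efflux. Its log2 level was 8.41, 8.46 and 8.52 in NBD 1, 3 and 4, 8.29, 8.39, 8.66 and 8.62 in BD 1, 3, 4 and 6, and 8.02, 8.0, 8.19 and 8.03 in BD_VNS 1 to 4. All 4 BD_VNS arrays lay below the other 7, and NBD and BD overlapped. The gene fell by 0.43 ± 0.08 (SE) in BD_VNS against BD, 1.35-fold lower with an adjusted p of 0.0123, and by 0.41 ± 0.09 against NBD, 1.32-fold lower with an adjusted p of 0.0132. Without BD 4 and BD 6, which averaged 0.302 above BD 1 and BD 3, the difference from BD was -0.28 with an adjusted p of 0.0642. With replicate numbers as a block it was -0.37, with an adjusted p of 0.0566. The call against NBD was lost without NBD 3 (adjusted p = 0.0513) or NBD 4 (0.0565). Fibroblast markers, 7 of 7 measured, averaged 9.98 to 10.13 in NBD, 10.24 to 10.55 in BD and 9.43 to 9.97 in BD_VNS, and 5 of the 7 fell in BD_VNS against BD. Macrophage markers, 8 of 10 measured, averaged 9.01 to 9.27, 9.08 to 9.29 and 8.0 to 8.73, and all 8 fell in BD_VNS against BD. The part of these cell types in the Abca8a result was not tested.

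Abcg5 and Abcg8 encode the paired subunits of the sterol pump that returns plant sterols and cholesterol to the gut lumen. Abcg5 (114628) was at 8.99, 8.91 and 8.79 in NBD 1, 3 and 4, at 8.87, 8.39, 8.70 and 8.61 in BD 1, 3, 4 and 6, and at 9.30, 8.89, 8.97 and 8.87 in BD_VNS 1 to 4. Abcg8 (155192) was at 8.57, 9.10 and 8.80 in NBD, at 8.59, 8.07, 8.51 and 8.44 in BD, and at 8.99, 9.12, 8.60 and 8.38 in BD_VNS, in the same order. BD 3 was the lowest array for both genes, and BD overlapped NBD for both. Neither gene passed: Abcg5 differed by -0.26 (95% interval -0.52 to 0.00) in BD against NBD (adjusted p = 0.268) and by 0.37 ± 0.11 (SE) in BD_VNS against BD (adjusted p = 0.0732), and Abcg8 by -0.42 (-0.82 to -0.02, adjusted p = 0.244) and 0.37 (adjusted p = 0.227). Without BD 1 the Abcg5 difference between BD_VNS and BD passed, at 0.44 with an adjusted p of 0.0437, and it passed in no other refit.

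The starts of Abcg5 and Abcg8 stand head to head, 206 bases apart, and the stretch between them is printed because both genes share it as upstream sequence. It covers chr6:15717731-15717935 in RefSeq GRCr8 and is written 5' to 3' on the plus strand, the strand of Abcg5. Capitals mark the reverse complement of AGAACA.
Abcg5 to Abcg8: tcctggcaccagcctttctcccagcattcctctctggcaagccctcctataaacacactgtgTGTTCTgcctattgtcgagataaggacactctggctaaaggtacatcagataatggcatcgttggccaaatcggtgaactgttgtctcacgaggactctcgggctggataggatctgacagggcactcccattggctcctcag
The 205 bases held 1 such match.

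Slc51a (303879), a subunit of the basolateral bile acid exporter, was at 11.56, 11.66 and 11.56 in NBD 1, 3 and 4, at 11.51, 11.34, 11.19 and 11.35 in BD 1, 3, 4 and 6, and at 11.53, 11.71, 11.55 and 11.54 in BD_VNS 1 to 4. All 4 BD arrays lay below the 7 others. The differences of -0.24 ± 0.07 (SE) in BD against NBD (adjusted p = 0.0693) and 0.23 ± 0.07 in BD_VNS against BD (0.0595) did not pass, while both passed after quantile normalization, with adjusted p-values of 0.0430 and 0.0337. Without BD 1 they also passed (0.0206 and 0.0260), and without BD_VNS 2 the first did (0.0425). With the 3' to 5' control difference in the model the second passed (0.0269). The enterocyte markers given above also averaged lowest in BD, but BD overlapped NBD, with BD 1 at 11.98 and NBD 4 at 11.96. Of the 14 markers, 2 fell in BD against NBD and 4 rose in BD_VNS against BD, and their part in the Slc51a values was not tested. Markers of the distal intestine, where bile acids are taken up, also averaged lower in BD than in NBD. All 5 of that list were measured, 2 of them (Fabp6 and Fgf19) in the lowest 25% by level. The 5 averaged 7.56 to 7.78 in NBD, 7.11 to 7.48 in BD and 7.17 to 7.66 in BD_VNS. Of the 5, 2 fell in BD against NBD, Cubn by 1.45 and Amn by 0.31, both of the vitamin B12 receptor. Fabp6, Fgf19 and Pyy differed by -0.03, -0.08 and 0.10 in that comparison and did not pass. In the other comparisons 0 of the 5 passed. Markers of the proximal intestine, 5 of 6 measured, averaged 11.31 to 12.00 in NBD, 11.85 to 12.23 in BD and 11.99 to 12.21 in BD_VNS, with 1 that rose and 1 that fell in BD against NBD. The member that rose was Cybrd1, a duodenal iron reductase, by 1.87, and the member that fell was Slc2a2, by 0.27. Cybrd1 was at 11.42 in NBD 1, 9.32 in NBD 3, 9.29 in NBD 4 and 11.21 to 12.51 in BD. Whether the segment sampled differed between arrays, and its part in the Slc51a values, was not tested.

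Abca1 (313210), which loads cholesterol onto apolipoprotein A1, was at 6.02, 6.06 and 6.09 in NBD 1, 3 and 4, at 6.31, 6.36, 6.16 and 6.18 in BD 1, 3, 4 and 6, and at 6.07, 6.18, 5.95 and 5.99 in BD_VNS 1 to 4. Its BD arrays lay above the NBD arrays, by 0.20 in the mean (adjusted p = 0.108), and overlapped BD_VNS, which differed by -0.21 (adjusted p = 0.0671). This probe set was in the lowest 25% by level. Without BD_VNS 2 the comparison of BD_VNS with BD passed, at -0.25 with an adjusted p of 0.0180. That comparison also passed with variance trend and robust variance (0.0493), after quantile normalization (0.0403), and without BD_VNS 2, BD 4 and BD 6 (0.00606). The comparison of BD with NBD passed in that last setting (0.0141) and with the 3' to 5' control difference in the model (0.0480). Abcg1 (85264), which exports cholesterol to high-density lipoprotein, was at 7.78, 7.74 and 7.69 in NBD, at 7.96, 7.97, 7.92 and 7.91 in BD and at 7.94, 7.95, 7.86 and 7.69 in BD_VNS. Its 4 BD arrays lay above the 3 NBD arrays with a difference of 0.20 that did not pass (adjusted p = 0.0732), and BD_VNS 4 lay with NBD. Without BD_VNS 4 the difference between BD and NBD passed, with an adjusted p of 0.0210, as did that of 0.18 between BD_VNS and NBD, at 0.0481. The difference between BD and NBD also passed with only the 2 groups fitted (0.0239) and with the control difference in the model (0.0274). The liver bile acid carrier Slc10a1 was in the lowest 25% by level and did not pass, and neither did the orphan members Slc10a3 and Slc10a7.

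**Figure D4:**
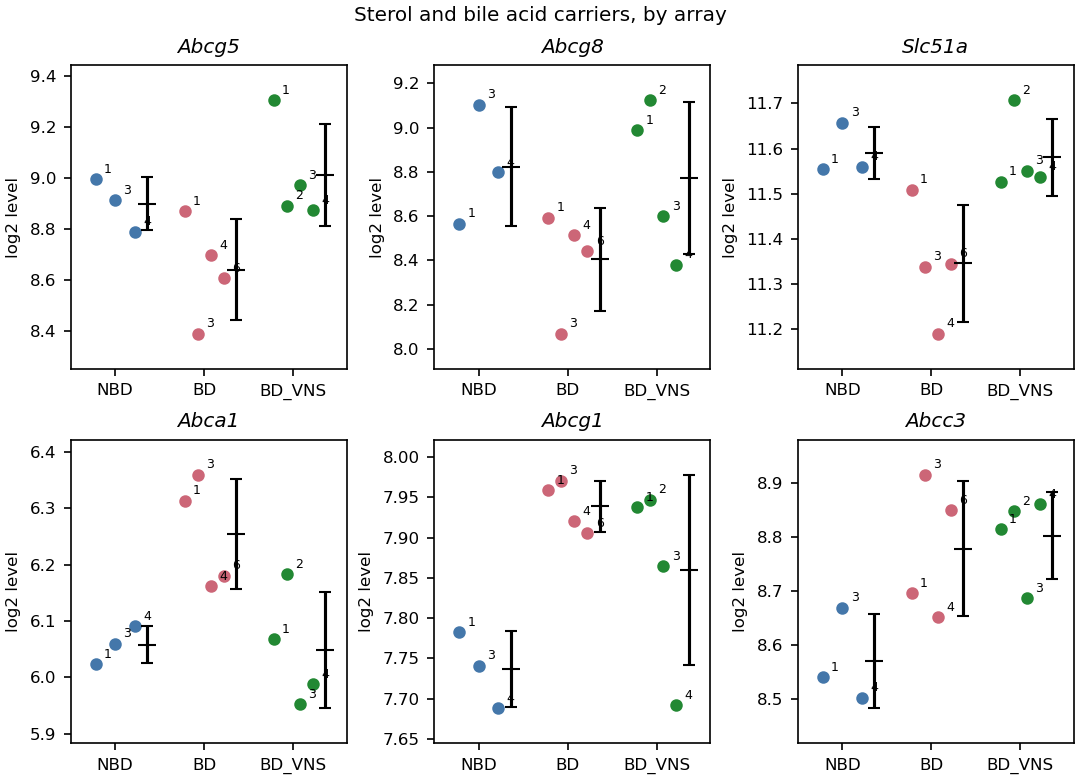
Log2 level by array of the sterol carriers Abcg5, Abcg8, Abca1 and Abcg1, the bile acid exporter subunit Slc51a and the conjugate pump Abcc3, with array numbers beside the points and bars for the group mean and SD. The BD arrays of Slc51a lie below all others, and those of Abcg1 and Abca1 lie above the NBD arrays, though none of these differences passed.

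The organelle ABC proteins held the other 2 carriers that passed. Abcd4 (299196), which works in the export of vitamin B12 from lysosomes, was at 8.02, 8.01 and 8.12 in NBD 1, 3 and 4, at 7.84, 7.64, 7.66 and 7.62 in BD 1, 3, 4 and 6, and at 7.86, 7.44, 7.73 and 7.84 in BD_VNS 1 to 4. All 8 brain-dead arrays lay below the 3 NBD arrays, and BD_VNS 2 was the lowest. Abcd4 fell by 0.36 ± 0.09 (SE) in BD against NBD, 1.28-fold lower with an adjusted p of 0.0461, and by 0.33 ± 0.09 in BD_VNS against NBD, 1.26-fold lower with an adjusted p of 0.0492. Both calls were close to the threshold. The first was lost without any 1 of NBD 1, NBD 3, NBD 4, BD 3, BD 4, BD 6 or BD_VNS 3, with adjusted p-values from 0.0667 to 0.145, and without BD 4 and BD 6 together (0.215). The second was lost without any 1 of these arrays or BD_VNS 4, with values from 0.0559 to 0.149, without BD 4 and BD 6 together (0.0651), and with only the 2 groups fitted (0.0723).

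Abcd3 (25270), which imports fatty acids and bile acid precursors into peroxisomes, was at 10.20, 10.05 and 10.34 in NBD 1, 3 and 4, at 10.09, 10.10, 10.04 and 10.10 in BD 1, 3, 4 and 6, and at 10.41, 10.28, 10.32 and 10.48 in BD_VNS 1 to 4. All BD_VNS arrays lay above all BD arrays, while NBD spanned both. Abcd3 rose by 0.29 ± 0.06 (SE) in BD_VNS against BD, 1.22-fold higher with an adjusted p of 0.0224. It differed by 0.17 between BD_VNS and NBD and by -0.12 between BD and NBD, and neither passed (adjusted p = 0.146 and 0.392). It was no longer called without BD 4 (adjusted p = 0.0522), BD 6 (0.0553), both of these (0.118), BD_VNS 1 (0.0564) or BD_VNS 4 (0.0704), or when the 3' to 5' control difference entered the model (0.20, adjusted p = 0.0703). Among the other organelle members, Abcb9, a lysosomal peptide carrier, was at 8.39, 8.07, 8.30 and 8.38 in BD_VNS 1 to 4 and between 7.95 and 8.17 in the 7 other arrays.

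Array BD_VNS 2 departed from its group in many carriers. It lay outside the range of the other 3 BD_VNS arrays in 40 of the 60 carriers, 20 below and 20 above, where the other 7 BD and BD_VNS arrays did so in 21 to 37. It differed by more than 0.25 from the mean of its group's other arrays in 13 carriers, against 0 to 7 for those 7 arrays. The largest departure was in Abcc6 (81642), a pump known from human for its loss in ectopic mineralisation, which was at 8.46 in BD_VNS 2, at 9.51, 9.31 and 9.33 in BD_VNS 1, 3 and 4, and between 8.84 and 9.07 in the 7 NBD and BD arrays. BD_VNS 2 was thus below and its 3 companions above all arrays of the other groups. Slc22a21 departed by -0.53, Abcd4 by -0.37, Abca7 by -0.37, Slc22a5 by -0.36, Abcb1a by -0.32 and Abcg8 by 0.47. The 3' to 5' difference of this array, 0.75, was like that of NBD and BD and unlike the 1.03 to 1.10 of its companions, and the part of RNA quality in these departures was not tested.

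Without BD_VNS 2 4 carriers passed between BD and NBD, 6 between BD_VNS and BD, and 5 between BD_VNS and NBD. These are 6.67%, 10% and 8.33% of the carriers, beside 7.72%, 9.7% and 14.3% of all probe sets in the same fit, so they too were near or under the background. Abcc6 then differed by 0.35 from BD (adjusted p = 0.00875) and by 0.45 from NBD (0.00231), and Abcb9 by 0.32 from both (0.00426 and 0.00364). Abca3, a lipid carrier known from lung surfactant, then differed by 0.20 from BD (0.0456). In each of these the 3 arrays left had the high 3' to 5' difference, so RNA quality and group cannot be told apart in them.

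**Figure D5:**
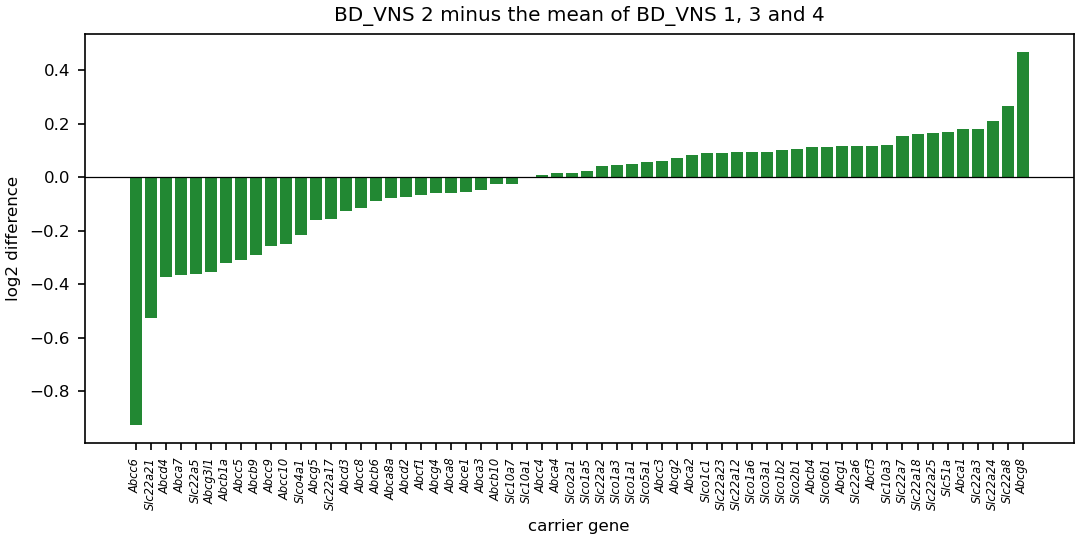
Log2 level in BD_VNS 2 minus the mean of BD_VNS 1, 3 and 4 for each of the 60 carriers, as bars from 0 in rising order. Abcc6 lies lowest at -0.93 and Abcg8 highest at 0.47.

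The genes that act with these carriers changed in a few cases, from 4 lists of regulators, bile acid and sterol partners, scaffold proteins and drug-metabolising enzymes. Of 20 regulators measured, 1 rose in BD against NBD, 0 passed in BD_VNS against BD and 3 rose in BD_VNS against NBD, beside the 5.73%, 5.56% and 8.44% of all probe sets that passed in either direction. These lists are short, and nothing is read from their counts beyond the genes named. Nfe2l2, the oxidative stress factor that drives several Abcc genes, was at 11.10, 10.87 and 10.88 in NBD, at 11.41, 11.62, 11.18 and 11.46 in BD and at 11.85, 11.64, 11.56 and 11.88 in BD_VNS. It rose by 0.47 in BD (adjusted p = 0.0258) and by 0.78 in BD_VNS (adjusted p = 0.00149) against NBD. In BD_VNS against NBD, the nuclear receptors Nr5a2 and Nr3c1 rose by 0.26 and 0.19. The drug sensor Nr1i2 (PXR) differed by -0.28, 0.00 and -0.28 in the 3 comparisons and did not pass (adjusted p = 0.112, 0.994 and 0.0867), and the bile acid sensor Nr1h4 and the oxysterol sensor Nr1h3 did not pass either.

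Of 8 bile acid and sterol partners, 1 passed: Cyp27a1, which makes an oxysterol that activates Nr1h3, fell by 0.98 in BD (adjusted p = 3.0e-05) and by 0.74 in BD_VNS (adjusted p = 0.00022) against NBD. Of 7 drug-metabolising enzymes, 3, 1 and 3 fell in the 3 comparisons. Cyp3a9 fell by 0.63 in BD and by 0.45 in BD_VNS against NBD, and Sult1a1, a sulfotransferase, fell by 1.49 and by 1.32. Cyp3a18 fell by 0.61 in BD against NBD, and Gsta1, a glutathione transferase, fell by 0.48 in BD_VNS against BD and by 0.73 in BD_VNS against NBD. Of 7 scaffold proteins that hold carriers at the apical membrane, 1, 2 and 2 fell in the 3 comparisons. Nherf2 fell by 0.16 in BD and by 0.24 in BD_VNS against NBD. Radixin (Rdx) fell by 0.21 in BD_VNS against BD and by 0.14 in BD_VNS against NBD, and moesin (Msn), which macrophages also express, fell by 0.63 in BD_VNS against BD.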

How the data were processed

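Total RNA was isolated with Trizol and labelled as biotinylated cRNA for Affymetrix arrays, per the labels' protocols. The deposited table holds log2 values that the authors had normalized, 1 for each probe set on each array. The log2 scale was read from the values. Neither software, background correction and batches nor detection calls are given in the sources used here. Rows carry rat Entrez numbers and were named through the platform annotation, and those it does not list were left unnamed.

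Of 11484 probe sets, 57 controls were set aside and the 11427 others tested without a filter on level. Arrays were grouped by title. All 11 arrays were fitted in 3 groups with limma 3.58.1 in R 4.3.3 (lmFit, contrasts, eBayes), and p was adjusted by Benjamini-Hochberg over all probe sets, with a call at an adjusted p under 0.05. The fit was checked on simulated data. The number of arrays, 3 or 4 a group, limits the precision. No probe set's level was set against another's, except to find the lowest 25%, below 7.02. No array pair held identical values.

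Genes named are all carriers that passed, a fixed set of well-known intestinal, hepatic and renal carriers, and the 3 largest changes in each comparison. Each gene of the 4 lists of other pathway genes that passed is also named. Of the fixed set, Abcb4, Slco3a1 and Slco4a1, which passed in no comparison, are named only here. Abcb9, Abcc6, Abca3 and further carriers singled out for 1 array or 1 setting, or for groups that did not overlap, were chosen after their values were seen. The members and lists were chosen with earlier results of these data known. Promoters came from RefSeq GRCr8, where 51 of 60 carriers matched. The calls were also read at an adjusted p under 0.1, and the analysis was refitted 20 times: with 9 changes of method or of arrays (among them variance trend, quantile normalization, centring, a filter on level, the control difference as a term, replicate numbers as a block, and sets of arrays left out), and leaving out each of 11 arrays.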

Additional observations from a re-analysis of the deposited data

Results flagged for a closer look

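In each carrier and each group of 4 arrays, the highest and lowest array was compared with the others by Dixon's test. Of 120 such groups, 7 had an array that stood apart, where chance gives about 1 in 20 groups. In BD_VNS 2, the lipid carrier Abca7 was at 7.46 beside 7.79 to 7.85 in the other 3 arrays, the potassium channel subunit Abcc9 at 6.60 beside 6.83 to 6.87, and the bile acid exporter subunit Slc51a at 11.71 beside 11.53 to 11.55. Abca8a was at 8.19 in BD_VNS 3 beside 8.0 to 8.03. In the BD group, Abca3 was at 8.83 in BD 3 beside 8.68 to 8.69, Abcg4 at 7.80 in BD 1 beside 8.09 to 8.13, and Slco1a3 at 6.30 in BD 4 beside 6.13 to 6.15. The array BD_VNS 2 held 3 of the 7.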

How the results depend on the processing

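Slc22a23 passed in all 20 refits in both comparisons with NBD, with adjusted p-values from 0.000127 to 0.00541 and from 3.19e-05 to 0.00218. Abcd4 passed in 12 and 10 of 20, Abca8a in 18 of 20 in both its comparisons, and Abcd3 in 13 of 20. Of the 60 carriers, 41 passed in no setting, the looser threshold included, and in no comparison, and nothing is read from that count. For the comparisons in the order BD against NBD, BD_VNS against BD and BD_VNS against NBD, 2, 2 and 3 carriers and 655, 635 and 965 probe sets passed as reported. Leaving out 1 array at a time gave 1 to 4, 1 to 6 and 1 to 5 carriers, and 317 to 882, 279 to 1108 and 494 to 1638 probe sets. The carriers' medians moved between -0.03 and -0.01, 0.01 and 0.05, and -0.02 and 0.02. At an adjusted p under 0.1, 5, 9 and 7 carriers and 1036, 1265 and 1545 probe sets passed. Without BD 4 and BD 6, 1 and 0 carriers and 293 and 152 probe sets passed in the first 2 comparisons. In the second of these, 12 carriers and 1965 of the 11427 probe sets had an unadjusted p under 0.05 with limma. When BD_VNS 2 was left out too, a setting chosen after seeing the data, 6 carriers and 1874 probe sets passed in the last comparison. With the 3' to 5' control difference in the model, 5, 4 and 4 carriers and 720, 415 and 363 probe sets passed in the 3 comparisons. In BD_VNS against BD, 4 carriers and 646 probe sets passed after median centring, and 6 and 784 after quantile normalization. That normalization changed the split of probe sets there from 217 higher and 418 lower to 361 and 423. With only the 2 groups fitted, 2 carriers and 343 probe sets passed in BD_VNS against BD. With replicate numbers as a block, 2, 2 and 6 carriers and 363, 402 and 968 probe sets passed in the 3 comparisons. No other array bears the number of BD_VNS 2 or of BD 6, so these arrays added nothing to the differences in that fit. Same-numbered arrays deviated together with correlations of only -0.24 to 0.07, so the numbers were not taken as a pairing. The causes of these moves were not tested. For the 22 carriers in the lowest 25% by level, a narrow interval may describe background rather than the transcript.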
